A study of Mus musculus with 31 samples.

Results

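Immediate early transcription factors are a set of 10 mouse genes, namely Fos, Fosb, Jun, Junb, Jund, Egr1, Egr2, Nr4a1, Nr4a2 and Nr4a3. They were chosen by name, with earlier results of these data known. All 10 were found by symbol among the 27179 genes of the deposited table and had an Entrez identifier. The 31 RNA-seq libraries came from mouse natural killer (NK) cells, innate lymphocytes that kill infected and tumour cells, purified by sorting. Each library belongs to 1 of 3 genotypes: wild type (WT), a knockout of TGFBRII (gene Tgfbr2), which binds transforming growth factor beta at the cell surface, and a knockout of CIS, a suppressor of cytokine signalling (gene Cish). Cells of each genotype were left unstimulated or were given the cytokine TGFB1 for 4 h or 24 h.

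Immediate early genes are transcribed within minutes of a stimulus without the need for new protein, and their messages are usually short-lived. FOS and JUN proteins pair to form the dimeric factor AP-1, EGR proteins are zinc-finger activators, and NR4A proteins are orphan nuclear receptors. In lymphocytes these factors are best known as readouts of receptor signalling. EGR2 and the NR4A factors are also known for restraining activated T cells.

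WT had 4 unstimulated libraries, 2 at 4 h and 4 at 24 h. TGFBRII KO had 3 at each time, and CIS KO had 4 at each time. The WT libraries at 4 h are replicates 1 and 4. The age and sex of the mice, their strain, the way each allele was made, the cells in which it is deleted and the dose of TGFB1 were not given in the sources used here. No group held for 4 or 24 h without TGFB1 was analysed here, so an effect of TGFB1 and one of time in culture cannot be told apart within a genotype. The labels number the libraries as biological replicates. Each p-value sets a difference between groups against the spread between libraries within groups. That spread was estimated over all groups together, so for WT at 4 h it rests mostly on the other groups.

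Library totals ran from 297561 to 1403005 counts, with a median of 736193. The shallowest library was replicate 1 of WT at 4 h and the deepest was replicate 2 of CIS KO at 24 h. The targeted gene Cish was at 18.0 to 56.1 CPM (counts scaled to library size) in the 12 CIS KO libraries and at 130 to 289 CPM in the 10 WT libraries. Tgfbr2 was at 199 to 277 CPM in the 9 libraries labelled TGFBRII KO and at 189 to 361 CPM in WT. A whole-gene count includes exons that a knockout allele may retain, so this level is no check of the receptor knockout. All 12 NK marker genes had counts in every library, among them Ncr1, an activating receptor of NK cells, at 76.1 to 258 CPM. The B cell markers Ms4a1 and Pax5 and the myeloid markers S100a9, Mpeg1 and C1qa had 0 counts in all 31 libraries, and Cd4 and Cd8a had 0 in 21 each. Other listed markers had counts in every library. Of the T cell list, Cd28 was at 171 to 330 CPM, Cd3g at 106 to 182 CPM and Cd3d at 47.0 to 127 CPM. Bcl11b was at 7.13 to 189.5 CPM and Cd3e at 1.20 to 20.2 CPM. The B cell marker Ighm, the myeloid markers Cd14 and Cd68, and the stromal or epithelial markers Pecam1 and Epcam also had counts in every library. Some markers moved with the responses, and their part in the results was not tested. The summed level of 7 B cell markers, of which Ighm alone was tested, was 20.3 to 34.4 CPM in unstimulated WT, 90.2 to 130 CPM in WT at 4 h, and 14.4 to 27.4 CPM in TGFBRII KO at 4 h. That of 9 T cell markers was 567 to 661 CPM in unstimulated WT and 432 to 537 CPM at 4 h. In TGFBRII KO it was 644 to 722 CPM in unstimulated cells and 476 to 504 CPM at 4 h.

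Of the 10 genes, 7 passed the filter on low counts and were tested with edgeR's quasi-likelihood test. Fos had 86 counts, Fosb 52 and Nr4a3 60 over all 31 libraries, and these 3 genes did not pass. Levels below are CPM scaled by edgeR's trimmed mean of M values (TMM). A gene is said to have risen or fallen where its Benjamini-Hochberg adjusted p over the 10275 genes tested was under 0.05. Changes are log2 fold changes ± standard error (SE), and values per library are listed in order of replicate number. In bulk RNA, fewer expressing cells and less RNA per cell cannot be told apart.

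Several genes of the set rose modestly with TGFB1. In WT cells, Jun, Junb and Egr1 rose at 4 h and Jun, Junb, Egr1 and Egr2 at 24 h, each by 1.39-fold to 2.14-fold. In CIS KO cells, Jun, Egr1 and Egr2 rose at 4 h, and Egr1 and Egr2 at 24 h. In TGFBRII KO cells none of these 4 genes passed the test at either time. The responses of Egr1 and Egr2 differed from those of WT at both times, while the differences for Jun and Junb did not pass. Those for Junb passed when the filter on low counts was left out. Nr4a2 followed another course: it rose at 4 h in TGFBRII KO cells and fell between 4 and 24 h in both knockouts. In WT its change between 4 and 24 h was -0.38 ± 0.18 and did not pass (edgeR adjusted p = 0.23).

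**Figure D1:**
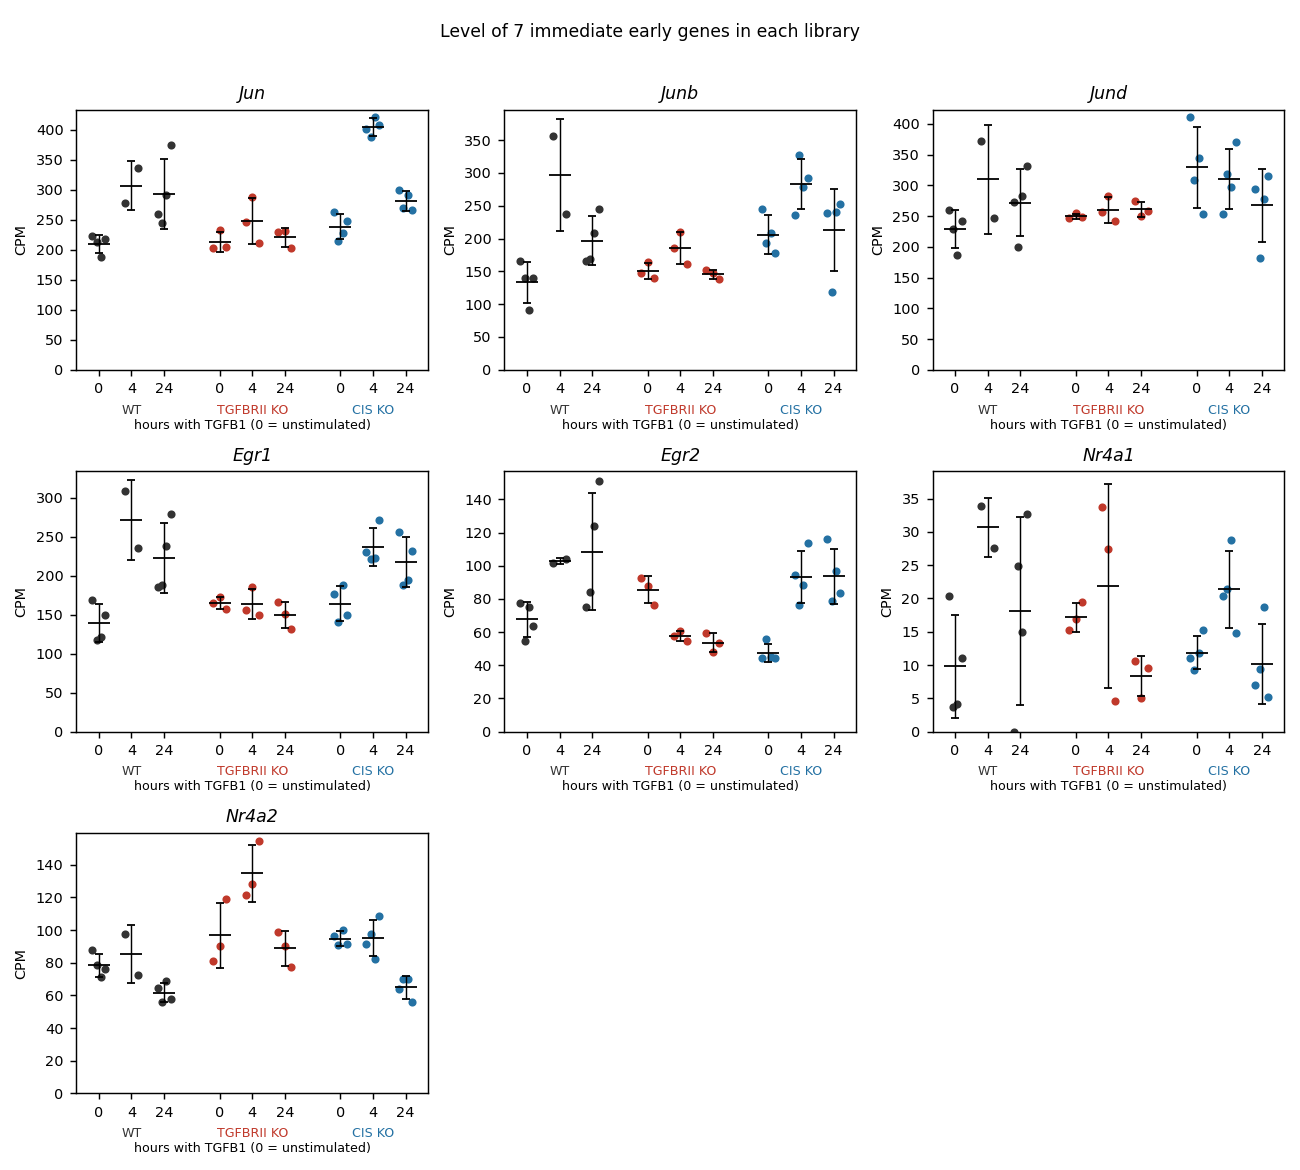
Level of the 7 tested genes in each library, in CPM on a linear axis from 0, by hours with TGFB1 within each genotype. Points are libraries, and bars are the mean and SD of a group. Egr1 in WT is at 117 to 169 CPM in unstimulated cells and at 236 to 308 CPM at 4 h, while in TGFBRII KO cells it stays between 132 and 186 CPM.

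Levels between genes can be compared only per length. Per kilobase of exon (GENCODE M21), mean CPM over the 31 libraries was 165.5 for Jund, 110.0 for Junb, 84.7 for Jun, 42.4 for Egr1, 24.7 for Egr2, 23.4 for Nr4a2, 5.89 for Nr4a1, 1.75 for Fos, 0.633 for Fosb and 0.446 for Nr4a3. Within the set, the JUN genes were therefore the most abundant, and Fos and Fosb were close to the limit of detection. Other members of the FOS family are not in the set, and their levels are not given here. The order among the JUN genes depends on the annotation, because Jund has 1668 bases of exon in GENCODE and spans 2878 bases in RefSeq. With the RefSeq spans of these single-exon genes the values per kilobase were 108.2 for Junb, 95.9 for Jund and 84.8 for Jun. GENCODE also places antisense genes over Jun and Jund, and whether the counting used strand is not given, so reads of the 2 strands cannot be told apart there.

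Fos, the founding member of its family (mm10 chromosome 12, 85473890 to 85477274), encodes the main partner of JUN in AP-1. Its raw counts were 1, 2, 1 and 0 in unstimulated WT, 0 and 5 at 4 h, and 3, 4, 5 and 6 at 24 h. In TGFBRII KO they were 1, 2 and 2, then 5, 8 and 2, then 2, 0 and 1. In CIS KO they were 0, 0, 2 and 3, then 4, 1, 1 and 2, then 5, 10, 7 and 1. Fos was thus scarce everywhere, with at most 10 counts in any library. WT counts at 24 h were above all those of unstimulated WT. Without the filter on low counts, edgeR gave Fos a log2 change of 2.23 ± 0.76 in WT at 24 h (adjusted p = 0.0297). That fold rests on 4 counts in all the unstimulated WT libraries together.

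Fosb, a paralogue of Fos (chromosome 7, 19302696 to 19310118), had 0 counts in 9 libraries and at most 5 in any. Its WT counts were 2, 2, 0 and 0 in unstimulated cells, 2 and 5 at 4 h, and 4, 3, 1 and 4 at 24 h. In CPM the WT libraries at 4 h, at 7.52 and 6.26, were above the unstimulated ones, at 0 to 2.54. Without the filter, the log2 change was 2.35 ± 0.98 (adjusted p = 0.13). Differences in Fosb were not detectable at this depth.

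**Figure D2:**
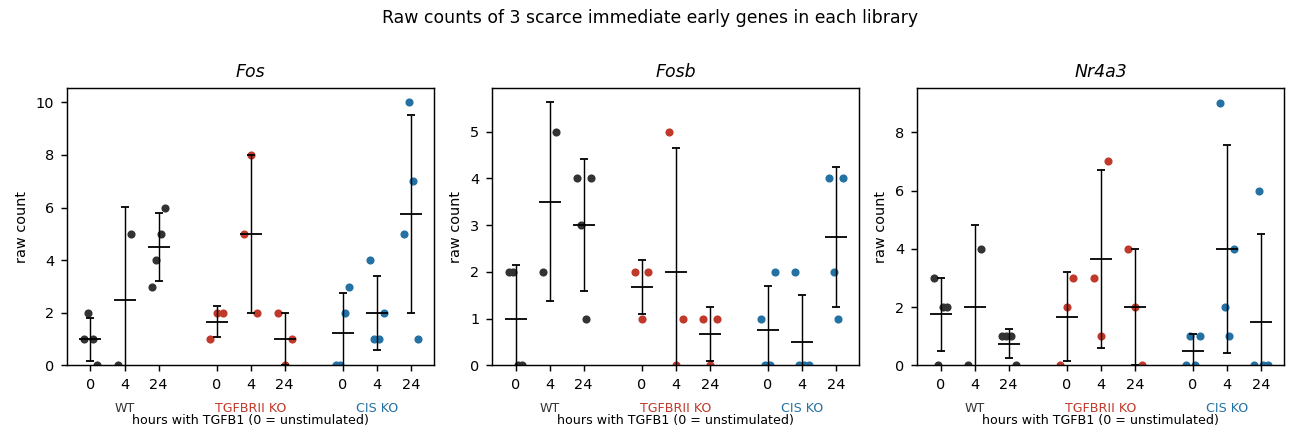
Raw counts of Fos, Fosb and Nr4a3 in each library, on a linear axis from 0, by hours with TGFB1 within each genotype; points are libraries, and bars are the mean and SD. No library holds more than 10 counts of any of the 3 genes.

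Jun (chromosome 4, 95049036 to 95052222) encodes the AP-1 subunit c-Jun. It was at 222, 212, 189 and 218 CPM in unstimulated WT, at 278 and 336 CPM at 4 h, and at 259, 245, 291 and 375 CPM at 24 h. TGFBRII KO libraries were at 203, 233 and 205 CPM, then at 247, 288 and 212 CPM, then at 229, 231 and 202 CPM. CIS KO libraries were at 262, 215, 228 and 248 CPM, then at 401, 387, 422 and 408 CPM, then at 300, 269.7, 292 and 266 CPM. The stimulated WT libraries at both times were above all unstimulated WT libraries. The 4 CIS KO libraries at 4 h were the highest of all 31, and those at 24 h lay between the other CIS KO groups with no overlap. TGFBRII KO groups overlapped at every time.

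Jun rose in WT by 0.58 ± 0.14 at 4 h (edgeR adjusted p = 0.0054) and by 0.47 ± 0.11 at 24 h (adjusted p = 0.0016). In CIS KO it rose by 0.77 ± 0.12 at 4 h (adjusted p = 8.0e-06) and then fell by 0.52 ± 0.11 between 4 and 24 h (adjusted p = 0.0015). The change in TGFBRII KO was 0.21 ± 0.13 at 4 h (adjusted p = 0.35) and 0.05 ± 0.13 at 24 h (adjusted p = 0.99). The difference between the TGFBRII KO and WT responses did not pass the test, at -0.36 ± 0.19 (adjusted p = 0.27) for 4 h and -0.43 ± 0.17 (adjusted p = 0.12) for 24 h. The WT call at 4 h was lost without replicate 4, where the change was 0.41 (adjusted p = 0.23). With 2 WT libraries at 4 h, that fit takes the lone library to vary like the others.

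Junb (chromosome 8, 84976909 to 84978748) encodes an AP-1 subunit that can oppose or replace c-Jun. It was at 165, 139.8, 90.5 and 139.5 CPM in unstimulated WT, at 357 and 237 CPM at 4 h, and at 165, 168, 209 and 245 CPM at 24 h. In TGFBRII KO it was at 148, 164 and 139.7 CPM, then at 185, 210.2 and 161 CPM, then at 152, 147 and 138 CPM. The CIS KO values were 246, 193, 208 and 178 CPM, then at 236, 328, 278 and 292 CPM, then at 239, 119, 240.1 and 252 CPM. WT libraries at 4 h stood above all unstimulated ones, while those at 24 h overlapped them. Replicate 2 of CIS KO at 24 h, the deepest library, was far below the other 3.

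Junb rose in WT by 1.10 ± 0.23 at 4 h (adjusted p = 0.0013), the largest change of a called gene of the set in any response of that genotype, and by 0.57 ± 0.19 at 24 h (adjusted p = 0.024). The change was 0.30 ± 0.21 in TGFBRII KO at 4 h (adjusted p = 0.46) and 0.46 ± 0.19 in CIS KO at 4 h (adjusted p = 0.10). At 24 h it was -0.05 ± 0.22 in TGFBRII KO (adjusted p = 0.99) and 0.01 ± 0.19 in CIS KO (adjusted p = 0.97). The response of TGFBRII KO minus that of WT was -0.80 ± 0.31 at 4 h (adjusted p = 0.12) and -0.62 ± 0.29 at 24 h (adjusted p = 0.19), and neither passed. Without the low-count filter edgeR called both (adjusted p = 0.0045 and 0.023), and also the CIS KO change at 4 h (0.0038). A fit of the compared groups alone called that CIS KO change too (0.0098). DESeq2 called none of them (adjusted p = 0.13, 0.28 and 0.15). At 24 h the WT call was lost without unstimulated replicate 3 (adjusted p = 0.15), 24 h replicate 3 (0.059) or 24 h replicate 4 (0.11).

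Junb and Jund counts did not rise in proportion to library size. Within groups, log2 count rose by 0.44 for Junb and 0.51 for Jund for each log2 unit of library total, against 0.82 for Egr1, 1.05 for Jun and a median of 1.18 over all genes tested. Only 6.39% of genes tested had a slope under 0.6. Their CPM is therefore higher in shallow libraries, and the shallowest of all is a WT library at 4 h. With library depth added to the fit, Junb still rose in WT, by 0.67 ± 0.14 at 4 h (adjusted p = 0.00088) and by 0.45 ± 0.11 at 24 h (adjusted p = 0.0011). Unlike edgeR as set out above, this fit called Junb higher in CIS KO, by 0.47 ± 0.11 at 4 h (adjusted p = 0.0012) and by 0.36 ± 0.11 at 24 h (adjusted p = 0.021). It also called the 24 h response difference between TGFBRII KO and WT, at -0.48 ± 0.16 (adjusted p = 0.039).

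**Figure D3:**
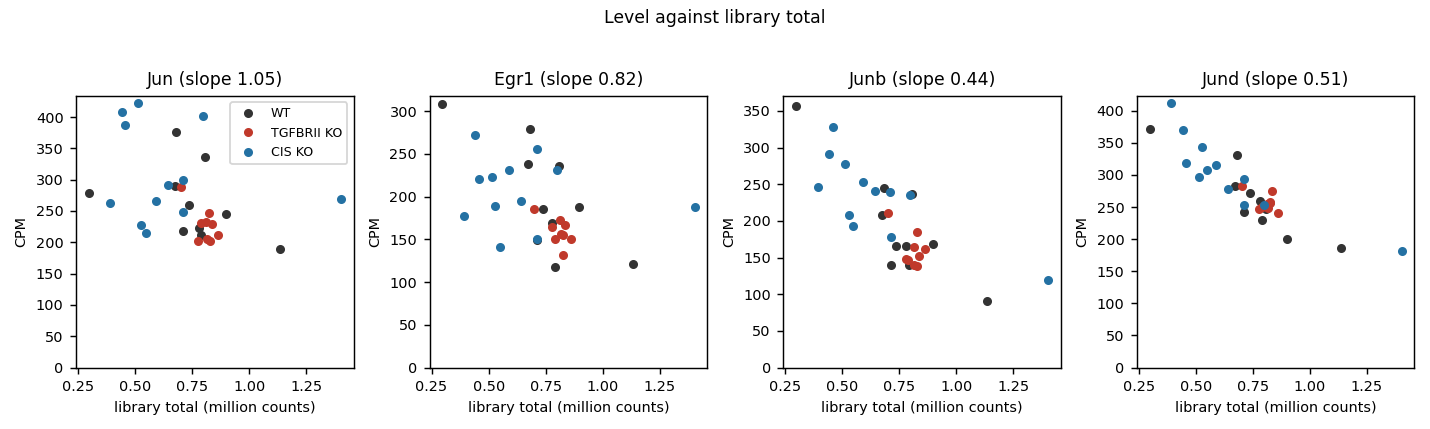
CPM of Jun, Egr1, Junb and Jund in each library (linear axis from 0) against the library total, coloured by genotype. The slope given above each panel is that of log2 count on log2 total within groups, where 1 is proportional; Junb and Jund, at 0.44 and 0.51, decline with depth.

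Jund (chromosome 8, 70697739 to 70700616) encodes the AP-1 subunit usually present in resting cells. Its group means ran from 229 ± 31.2 CPM in unstimulated WT (SD, n = 4) to 329 ± 66.6 CPM in unstimulated CIS KO (n = 4). It was called in none of the 19 comparisons by edgeR as set out above. Its change was 0.38 ± 0.20 in WT at 4 h (adjusted p = 0.23), and with depth in the fit -0.03 ± 0.11. The difference between unstimulated CIS KO and WT was 0.51 ± 0.16 (adjusted p = 0.052). DESeq2 called it (adjusted p = 0.033), as did edgeR with library size alone (0.0499), without the low-count filter (0.0019) and with only the groups compared (0.018), and fits without unstimulated WT replicate 1 (0.038) or unstimulated CIS KO replicate 4 (0.0198). With depth in the fit it was 0.11 ± 0.09 (adjusted p = 0.70).

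Egr1 (chromosome 18, 34861207 to 34864956) encodes a zinc-finger activator induced by growth factor and antigen receptor signals. It was at 169, 117, 121 and 149 CPM in unstimulated WT, at 308 and 236 CPM at 4 h, and at 185, 188, 239 and 279 CPM at 24 h. In TGFBRII KO it was at 165, 172 and 157 CPM, then at 155, 186 and 149.8 CPM, then at 166, 151 and 132 CPM. In CIS KO it was at 177, 141 and 188 CPM in replicates 1 to 3 and 149.8 CPM in replicate 4, then at 231, 221, 222 and 272 CPM, then at 256, 187, 195 and 232 CPM. All stimulated WT libraries lay above all unstimulated ones, and so did the CIS KO libraries at 4 h. The TGFBRII KO groups overlapped one another at every time.

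Egr1 rose in WT by 0.93 ± 0.17 at 4 h (adjusted p = 0.00026) and by 0.68 ± 0.14 at 24 h (adjusted p = 0.00023), and in CIS KO by 0.54 ± 0.15 (adjusted p = 0.010) and 0.41 ± 0.14 (adjusted p = 0.034). In TGFBRII KO the change was -0.02 ± 0.16 at 4 h (adjusted p = 0.98) and -0.14 ± 0.16 at 24 h (adjusted p = 0.97). The responses of TGFBRII KO and WT differed by -0.94 ± 0.23 at 4 h (adjusted p = 0.0084) and by -0.82 ± 0.21 at 24 h (adjusted p = 0.0069). Without WT 4 h replicate 1, the 4 h difference was -0.79 ± 0.25 (adjusted p = 0.059). The CIS KO rise at 24 h was lost under RLE scaling (adjusted p = 0.051), under DESeq2 (0.077) and in a fit of the compared groups alone (0.086). It was also lost without unstimulated replicate 1, 2 or 4, or 24 h replicate 1 or 4, with adjusted p of 0.054 to 0.15. The rise at 4 h was lost without replicate 2 of unstimulated cells (adjusted p = 0.059) or 4 h replicate 4 (adjusted p = 0.0502). Egr1 CPM also declined with library depth, at an r within groups of -0.55. With depth in the edgeR fit, Egr1 rose in WT by 0.74 ± 0.15 at 4 h (adjusted p = 0.00065). In that fit the responses of TGFBRII KO and WT differed by -0.77 ± 0.20 at 4 h (adjusted p = 0.0097) and -0.75 ± 0.17 at 24 h (adjusted p = 0.0019).

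Egr2 (chromosome 10, 67534469 to 67542188) encodes a related zinc-finger factor that limits T cell activation. It was at 77.5, 54.9, 75.4 and 63.5 CPM in unstimulated WT, at 101 and 104 CPM at 4 h, and at 75.2, 84.2, 124 and 151 CPM at 24 h. TGFBRII KO libraries were at 92.4, 88.0 and 76.6 CPM, then at 57.8, 60.5 and 54.9 CPM, then at 59.3, 47.7 and 53.6 CPM. CIS KO libraries were at 44.2, 55.7, 45.2 and 44.4 CPM, then at 94.2, 76.1, 88.5 and 114 CPM, then at 116, 78.9, 96.7 and 83.6 CPM. Stimulated libraries were above the unstimulated ones in CIS KO at both times and in WT at 4 h. In TGFBRII KO the order was the opposite, with all 6 stimulated libraries below the 3 unstimulated ones.

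Egr2 rose in WT by 0.64 ± 0.16 at 24 h (adjusted p = 0.0030), and its change at 4 h was 0.59 ± 0.22 (adjusted p = 0.068). In CIS KO it rose by 0.97 ± 0.21 at 4 h (adjusted p = 0.00095) and by 0.96 ± 0.19 at 24 h (adjusted p = 0.00040). In TGFBRII KO the change was -0.57 ± 0.20 at 4 h (adjusted p = 0.071) and -0.67 ± 0.20 at 24 h (adjusted p = 0.395), neither of which passed. A fit of the compared groups alone called both (adjusted p = 0.013 and 0.0081). So did edgeR without the low-count filter (adjusted p = 0.025 and 0.037), which also called the WT change at 4 h (adjusted p = 0.033). With depth in the fit, only the fall at 4 h was called (adjusted p = 0.045). DESeq2 (adjusted p = 0.15 and 0.92) and the replicate block (0.060 and 0.34) called neither fall. The responses of TGFBRII KO and WT differed by -1.16 ± 0.29 at 4 h (adjusted p = 0.010) and by -1.31 ± 0.26 at 24 h (adjusted p = 0.00039). Without WT 4 h replicate 4, the 4 h difference was -1.14 ± 0.42 (adjusted p = 0.094).

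**Figure D4:**
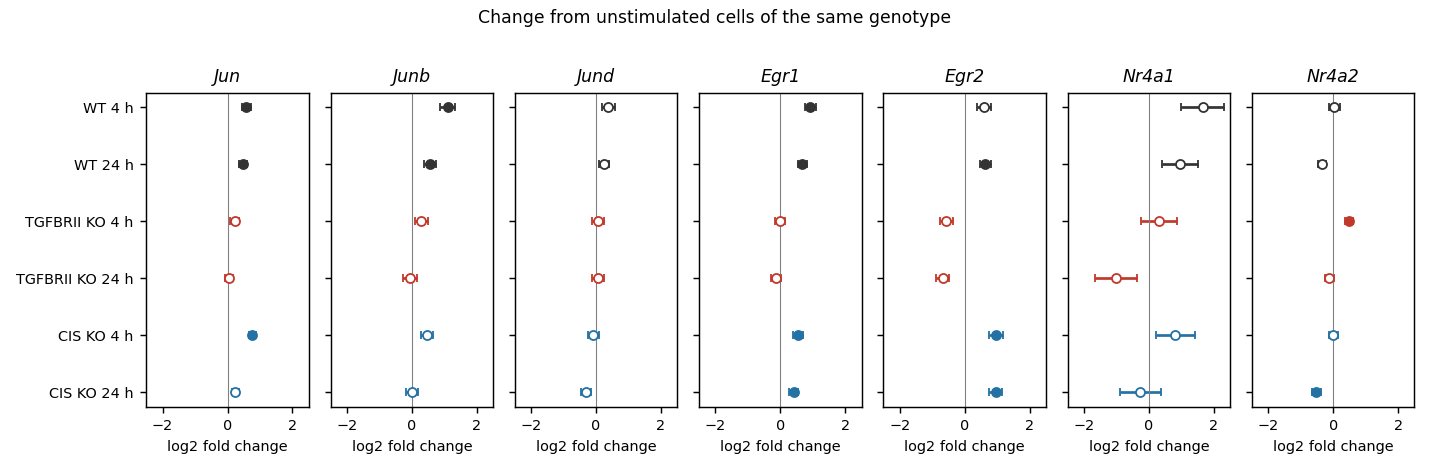
Log2 fold change from unstimulated cells of the same genotype, ± SE, for the 7 tested genes; filled points have an edgeR adjusted p under 0.05 and open points do not. Egr1 and Egr2 lie to the right of 0 in WT and CIS KO at both times, and in TGFBRII KO at or to the left of it, Egr2 at -0.57 and -0.67.

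The promoters are shown for Egr2, which rose with TGFB1 in WT and CIS KO, for Jun, whose rise in CIS KO at 4 h had the smallest adjusted p of the set, and for Nr4a2, which took another course. Each is the 250 bases before an annotated start in RefSeq (GRCm38.p6, the mm10 assembly), written 5′ to 3′ on the gene's strand, with matches to a CArG box or an EGR site in capitals. Egr2 is at chr10:67537619-67537868 (plus strand), Jun at chr4:95052223-95052472 (minus strand) and Nr4a2 at chr2:57124004-57124253 (minus strand).
Egr2: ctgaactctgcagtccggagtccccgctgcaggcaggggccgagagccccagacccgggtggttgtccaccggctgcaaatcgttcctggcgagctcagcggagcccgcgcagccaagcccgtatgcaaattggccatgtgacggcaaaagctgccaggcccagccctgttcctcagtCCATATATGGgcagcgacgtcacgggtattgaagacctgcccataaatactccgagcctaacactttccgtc
Jun: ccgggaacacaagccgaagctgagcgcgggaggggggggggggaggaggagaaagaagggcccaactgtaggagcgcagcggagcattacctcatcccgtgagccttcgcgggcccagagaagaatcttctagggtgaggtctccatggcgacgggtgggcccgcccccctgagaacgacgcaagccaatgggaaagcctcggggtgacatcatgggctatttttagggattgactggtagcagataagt
Nr4a2: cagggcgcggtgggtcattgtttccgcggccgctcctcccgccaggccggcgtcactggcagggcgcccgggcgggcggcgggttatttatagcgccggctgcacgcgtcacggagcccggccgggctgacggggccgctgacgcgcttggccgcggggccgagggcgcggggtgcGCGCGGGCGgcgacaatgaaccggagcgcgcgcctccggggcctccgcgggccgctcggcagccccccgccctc

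Windows were held for 9 of the 10 genes, 13 windows in all, with none for Egr1 and several for Egr2. Both strands were searched for 6 motifs, and overlapping matches were allowed. The motifs were the CArG box (the element of serum response factor), the cAMP response element TGACGTNA, the AP-1 site TGANTCA, the SMAD core CAGAC, the EGR site GCGNGGGCG and the NR4A site AAAGGTCA. Egr2 held a CArG box, CCATATATGG, 72 bases before the start shown, and a SMAD core 201 bases before it. Its other windows differed. The one that begins at 67535249 held none of the 6 motifs. The one that begins at 67537316 held another CArG box, CCTTTTTTGG, and no SMAD core. The rest overlapped the window shown and held the same CArG box. Nr4a2 held an EGR site 74 bases before its start. Fosb and Nr4a1 also held an EGR site, and Nr4a1 and Nr4a3 a SMAD core. These letters were not found in the windows of Fos, Jun, Junb and Jund for any of the 6 motifs. Of all 32851 windows of this length, 1.47% held a CArG box, 4.7% an EGR site, 42.2% a SMAD core, 6.75% an AP-1 site, 2.52% a cAMP response element and 1.34% an NR4A site. These shares are per window, so a gene with several windows has more chances of a match.

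Nr4a1 (chromosome 15, 101253902 to 101274795) encodes Nur77, a nuclear receptor induced by antigen receptor signals in T cells. It was at 20.3, 3.74, 4.19 and 11.05 CPM in unstimulated WT, at 33.8 and 27.6 CPM at 4 h, and at 0, 24.8, 14.9 and 32.6 CPM at 24 h. Its raw counts were 0 to 28 per library, and the group means of the knockouts ran from 8.41 ± 2.99 to 21.9 ± 15.3 CPM. Both WT libraries at 4 h were above all unstimulated ones, by 1.65 ± 0.65 (adjusted p = 0.094), which did not pass. Nr4a1 was called in none of the 19 comparisons, and its SE of 0.54 to 0.89 leaves changes of the size seen for Jun undetectable. Without the low-count filter, the WT change at 4 h passed (1.64 ± 0.44, adjusted p = 0.0041), and so did the change between 4 and 24 h in TGFBRII KO (-1.31 ± 0.41, adjusted p = 0.034) and in CIS KO (-1.09 ± 0.38, adjusted p = 0.041). The 24 h response difference between TGFBRII KO and WT passed there too (-1.95 ± 0.56, adjusted p = 0.011). Leaving out unstimulated WT replicate 1 also brought the WT change at 4 h past the threshold (2.28 ± 0.70, adjusted p = 0.029). Leaving out WT 24 h replicate 1, the library at 0, did so for the change in WT at 24 h (1.36 ± 0.46, adjusted p = 0.033). Either omission also brought the 24 h response difference between TGFBRII KO and WT past it, at -2.59 (adjusted p = 0.048) and -2.37 (adjusted p = 0.022), and the second did so for TGFBRII KO against WT at 24 h (-1.50, adjusted p = 0.035).

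Nr4a2 (chromosome 2, 57106830 to 57124003) encodes Nurr1, a close relative of Nur77. It was at 87.7, 78.7, 71.3 and 76.0 CPM in unstimulated WT, at 97.7 and 72.7 CPM at 4 h, and at 64.5, 56.1, 68.6 and 57.9 CPM at 24 h. In TGFBRII KO it was at 81.0, 90.4 and 119 CPM, then at 122, 128 and 154 CPM, then at 98.5, 90.5 and 77.4 CPM. In CIS KO it was at 96.7, 90.9, 100.1 and 91.6 CPM, then at 91.7, 97.5, 82.4 and 109 CPM, then at 63.7, 70.1, 70.2 and 55.7 CPM. The 3 TGFBRII KO libraries at 4 h were the highest of all 31. The 24 h libraries were below the 4 h libraries in every genotype, without overlap.

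Nr4a2 rose in TGFBRII KO by 0.48 ± 0.13 at 4 h (adjusted p = 0.018) and fell by 0.61 ± 0.13 between 4 and 24 h (adjusted p = 0.0028). In CIS KO it fell by 0.52 ± 0.14 at 24 h against unstimulated cells (adjusted p = 0.0054) and by 0.52 ± 0.14 against 4 h (adjusted p = 0.010). In WT the change was 0.04 ± 0.18 at 4 h (adjusted p = 0.96) and -0.34 ± 0.13 at 24 h (adjusted p = 0.064). The WT fall at 24 h was called by edgeR with library size alone (-0.36, adjusted p = 0.046) and with depth in the fit (-0.35, adjusted p = 0.046). No other alternative called it, DESeq2 included (adjusted p = 0.19). The 4 h responses of TGFBRII KO and WT differed by 0.44 ± 0.22 (adjusted p = 0.23), so a difference in response was not shown. The rise in TGFBRII KO was lost under DESeq2 (adjusted p = 0.10), and when 1 library was left out, namely unstimulated replicate 1 (adjusted p = 0.15), its replicate 2 (0.091) or replicate 3 of the 4 h group (0.16). Heat shock genes can be raised by handling of cells. Of 8 listed, 6 were tested, and 1 rose in TGFBRII KO at 4 h, where 8.02% of all genes were called. It was Hspa8, a constitutive chaperone, which rose by 1.67 ± 0.42 (adjusted p = 0.011). Hspa8 had a low level here, at 6.94 ± 4.84 CPM in unstimulated TGFBRII KO and 22.7 ± 3.83 CPM at 4 h. Its change was 1.13 ± 0.46 in WT (adjusted p = 0.11) and 1.06 ± 0.40 in CIS KO (adjusted p = 0.075) at 4 h, and the TGFBRII KO response minus that of WT was 0.55 ± 0.63 (adjusted p = 0.66). The summed level of the 8 genes was 713 to 806 CPM in TGFBRII KO at 4 h and 634 to 657 CPM in the unstimulated libraries, and its part in the Nr4a2 result was not tested.

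Nr4a3 (chromosome 4, 48045078 to 48086447), the third NR4A receptor, had 0 counts in 10 libraries. Its counts in CIS KO were 0, 1, 0 and 1 in unstimulated cells, 9, 2, 1 and 4 at 4 h, and 0, 6, 0 and 0 at 24 h. No other group exceeded 7 counts in a library. Without the filter, its log2 change in CIS KO at 4 h was 2.79 ± 0.93 (adjusted p = 0.034), which rests on 2 counts in all the unstimulated CIS KO libraries together.

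Counted over the 7 tested genes, 3 were called in WT at 4 h, all of them higher, where 11.9% of all genes tested were called in either direction. At 24 h 4 were called, all higher, against 21.1% of all genes. Their median log2 change was 0.59 at 4 h and 0.57 at 24 h, beside -0.02 and 0.03 over all genes tested. Because the genes were chosen with earlier results of these data known, such counts and medians describe the set and do not test it. In CIS KO 3 were called at 4 h, all higher (14.1% of all genes called), 3 at 24 h, of which Nr4a2 was lower (24% called), and 2 between 4 and 24 h, both lower (15.4% called). In TGFBRII KO 1 was called at 4 h (8.02% of all genes called) and 1 between 4 and 24 h (8.17% called), Nr4a2 in both.

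Some comparisons within a genotype gave 0 calls among the 7 genes with edgeR. They were TGFBRII KO at 24 h against unstimulated (0.0195% of all genes called, 1 of the 7 genes at an unadjusted p under 0.05) and WT at 24 h against 4 h (7.57% called, 1 gene at an unadjusted p under 0.05). DESeq2 also made 0 calls in both.

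The genotypes were compared at each time to ask whether the set differed at rest and under TGFB1. These comparisons share the WT libraries with the WT responses above. In unstimulated cells, TGFBRII KO and WT differed in 0 of the 7 genes by edgeR and by DESeq2, with 1 gene at an unadjusted p under 0.05 and 0.146% of all genes called. At 4 h 3 of the 7 were called (11.8% of all genes called) and at 24 h 4 (21.6% called), and of these Nr4a2 was higher and the others lower in TGFBRII KO. Egr1 was lower by -0.69 ± 0.18 at 4 h (adjusted p = 0.0081) and -0.56 ± 0.15 at 24 h (adjusted p = 0.0041), and Egr2 by -0.84 ± 0.24 (adjusted p = 0.014) and -0.99 ± 0.18 (adjusted p = 8.4e-05). Jun was lower at 24 h, by -0.40 ± 0.12 (adjusted p = 0.014). Nr4a2 was higher by 0.75 ± 0.17 at 4 h (adjusted p = 0.0021) and 0.53 ± 0.14 at 24 h (adjusted p = 0.0050). None of these called pairs of groups overlapped, and neither did those of Junb, which was not called at either time. The share of all genes without overlap was not computed, so the lack of overlap adds nothing to the calls. Without the low-count filter edgeR also called Junb lower, at 4 h (adjusted p = 0.0033) and 24 h (adjusted p = 0.018).

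With 2 WT libraries at 4 h, each of these 3 calls at 4 h was lost without 1 of them. Without replicate 1, Egr1 was at -0.53 (adjusted p = 0.12). Without replicate 4, Egr2 was at -0.82 (adjusted p = 0.18) and Nr4a2 at 0.47 (adjusted p = 0.31). The Jun call at 24 h was lost without WT 24 h replicate 4 (adjusted p = 0.11) or TGFBRII KO 24 h replicate 3 (adjusted p = 0.093).

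CIS KO and WT cells differed in 1 of the 7 genes at rest, where 6.15% of all genes were called. Junb was higher in CIS KO by 0.63 ± 0.19 (adjusted p = 0.048), with no overlap between the groups. The unstimulated CIS KO libraries were all shallower than the unstimulated WT ones, at 392266 to 711659 against 712432 to 1135104 counts. With depth in the fit, the Junb difference was 0.20 ± 0.12 (adjusted p = 0.55), and leaving out any 1 of 6 of the 8 libraries also ended the call, with adjusted p of 0.061 to 0.25. Egr2 was at 47.4 ± 5.55 CPM in unstimulated CIS KO and 67.9 ± 10.6 CPM in WT (n = 4 each), a difference of -0.53 ± 0.20 that did not pass (adjusted p = 0.092).

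Under TGFB1, CIS KO and WT differed in 0 of the 7 genes by edgeR and DESeq2 at 4 h (0.273% called, 1 gene at an unadjusted p under 0.05) and at 24 h (3.27% called, 0 genes at an unadjusted p under 0.05). At 4 h the level of Jun was 405 ± 14.4 CPM (n = 4) in CIS KO against 307 ± 40.8 CPM (n = 2) in WT, without overlap, a difference of 0.37 ± 0.14 (adjusted p = 0.40).

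The responses themselves were compared by interaction terms. Between TGFBRII KO and WT, 2 of 7 genes differed at 4 h (7.57% of all genes called) and 2 at 24 h (10.8% called), in each case Egr1 and Egr2. Between CIS KO and WT, 0 of 7 differed by edgeR and DESeq2 at 4 h (0% called, 1 gene at an unadjusted p under 0.05) and at 24 h (1.33% called, 2 genes at an unadjusted p under 0.05). The difference for Egr1 was -0.39 ± 0.23 at 4 h and for Egr2 0.38 ± 0.30, so a moderate effect of the CIS knockout on either response could not be told from 0.

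Across the 9 groups, mean Jun ran from 210.4 ± 15.1 CPM in unstimulated WT to 405 ± 14.4 CPM in CIS KO at 4 h. WT at 4 h came next below that highest group, at 307 ± 40.8 CPM, followed by WT at 24 h at 292 ± 58.4 CPM and CIS KO at 24 h at 282 ± 16.4 CPM, which lay within one another's spread. Egr2 ran from 47.4 ± 5.55 CPM in unstimulated CIS KO, through the stimulated TGFBRII KO groups at 53.6 ± 5.80 and 57.7 ± 2.80 CPM, to 109 ± 35.4 CPM in WT at 24 h and 103 ± 1.77 CPM in WT at 4 h. Neighbours among the lowest 3 Egr2 groups, and the highest 2, lay within their spread. Nr4a2 was highest in TGFBRII KO at 4 h, at 135 ± 17.3 CPM, and lowest in WT and CIS KO at 24 h, at 61.8 ± 5.79 and 64.9 ± 6.86 CPM, which did not differ beyond their spread.

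As a description over the 31 libraries, which share genotype, time and depth, log2 CPM of Jun and Egr1 had a Pearson r of 0.80, Egr1 and Egr2 0.73, and Egr2 and Nr4a2 -0.46. Within groups the 21 pairs of tested genes had a median r of 0.366, from -0.11 to 0.88, and 18 were above 0. The highest, 0.88, joined Junb and Jund, the pair whose CPM declines most with depth, at an r with log2 depth of -0.86 and -0.91. For Egr1 that r was -0.55. The genes whose log2 CPM was most like that of Jun were Myh9 (0.92), Zfp36l2 (0.89) and Spag9 (0.87). For Junb they were Ctnnb1 (0.95), Sec11a (0.93) and 2410006H16Rik (0.93), and for Jund Sod1 (0.94), S100a10 (0.94) and Fcer1g (0.93). For Egr1 they were Tgfbr2 (0.88), Runx3 (0.87) and Mrpl10 (0.87), and for Egr2 Ank (0.88), Rbm22 (0.83) and Qpct (0.82). For Nr4a1 they were Ldb1 (0.86), Tnfaip3 (0.84) and Cog3 (0.82), and for Nr4a2 Gm17767 (0.84), Lilrb4a (0.83) and Pim1 (0.81).

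Other genes of these pathways were described from lists, also chosen with earlier results of these data known. Among 7 tested of 10 further AP-1 and bZIP partners, 0 rose and 2 fell in WT at 4 h, and 1 rose and 1 fell at 24 h. In CIS KO 3 rose and 2 fell at 4 h, and 1 rose and 2 fell at 24 h, while in TGFBRII KO 0 were called by edgeR at either time. The shares of all genes called were 11.9% and 21.1% in WT at 4 and 24 h. They were 14.1% and 24% in CIS KO, and 8.02% and 0.0195% in TGFBRII KO. Jdp2, a repressor that binds JUN, went from 54.0 ± 7.36 CPM in unstimulated WT to 27.6 ± 1.77 at 4 h and 25.4 ± 4.13 at 24 h. It fell by 0.95 ± 0.25 and 1.07 ± 0.18 in WT (adjusted p = 0.011 and 2.5e-05) and by 1.53 ± 0.22 and 1.72 ± 0.20 in CIS KO (adjusted p = 2.2e-06 and 4.8e-08). Its response differed between TGFBRII KO and WT by 1.25 ± 0.32 at 4 h (adjusted p = 0.010) and 1.08 ± 0.27 at 24 h (adjusted p = 0.0053). Mafk, a small MAF protein without an activation domain, rose by 1.42 ± 0.22 in WT at 24 h (adjusted p = 7.1e-06) and by 1.84 ± 0.29 in CIS KO (adjusted p = 1.2e-05). Batf, an AP-1 factor that pairs with JUN proteins, fell by 0.68 ± 0.20 in WT at 4 h (adjusted p = 0.022) and by 0.75 ± 0.16 in CIS KO (adjusted p = 0.00094). Maff, another small MAF protein, rose by 0.79 ± 0.17 in CIS KO at 4 h (adjusted p = 0.0010).

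Of 29 tested of 30 other immediate early genes, 9 rose and 0 fell in WT at 4 h, and 6 rose and 1 fell at 24 h. In CIS KO 6 rose and 0 fell at 4 h, and 3 rose and 5 fell at 24 h. In TGFBRII KO 3 rose at 4 h, and 0 were called by edgeR at 24 h. Over all genes tested, 11.9% and 21.1% were called in WT at 4 and 24 h, 14.1% and 24% in CIS KO, and 8.02% and 0.0195% in TGFBRII KO. The list's median log2 change was 0.51 and 0.11 in WT at 4 and 24 h, 0.23 and -0.01 in CIS KO, and 0.17 and -0.04 in TGFBRII KO, where the medians over all genes were -0.02 to 0.04. Trib1, a pseudokinase that steers protein degradation, went from 26.4 ± 6.58 CPM in unstimulated WT to 156 ± 39.9 at 4 h and 190.3 ± 21.4 at 24 h, and was at 19.1 ± 8.46 CPM in TGFBRII KO at 4 h. It rose by 2.44 ± 0.24 in WT at 4 h (adjusted p = 3.0e-09) and 2.49 ± 0.20 in CIS KO (adjusted p = 1.8e-11). Rgs2, a brake on G protein signalling, rose by 1.63 ± 0.16 in WT at 4 h (adjusted p = 2.3e-09) and 1.55 ± 0.14 in CIS KO (adjusted p = 3.0e-10). The 4 h responses of TGFBRII KO and WT differed by -2.87 ± 0.40 for Trib1 (adjusted p = 1.4e-05) and -1.35 ± 0.24 for Rgs2 (adjusted p = 0.00030).

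Zfp36l2, which binds AU-rich messages and promotes their decay, rose by 0.99 ± 0.18 in WT at 4 h (adjusted p = 0.00017). Ier3 took the course of neither group, since it fell in WT by 0.68 ± 0.15 at 24 h (adjusted p = 0.0011) and rose in TGFBRII KO by 0.65 ± 0.16 at 4 h (adjusted p = 0.0088).

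Of 15 factors that act upstream of immediate early genes, all tested, 1 rose and 1 fell in WT at 4 h, and 1 rose and 2 fell at 24 h. In CIS KO 2 rose and 2 fell at 4 h, and 1 rose and 1 fell at 24 h. In TGFBRII KO 0 rose and 1 fell at 4 h, and 0 were called by edgeR at 24 h. Of all genes tested, 11.9% and 21.1% were called in WT at 4 and 24 h. The shares were 14.1% and 24% in CIS KO, and 8.02% and 0.0195% in TGFBRII KO. Mef2a, a MADS-box factor known to act at the Jun promoter, went from 72.5 ± 7.60 CPM in unstimulated WT to 133 ± 7.97 at 4 h and 164 ± 9.11 at 24 h. It rose by 0.89 ± 0.16 and 1.16 ± 0.11 in WT (adjusted p = 0.00013 and 8.6e-10) and by 1.44 ± 0.14 and 1.35 ± 0.13 in CIS KO (adjusted p = 8.5e-10 and 8.3e-10). In TGFBRII KO it was at 68.1 ± 14.1, 72.8 ± 1.97 and 67.4 ± 0.688 CPM. Creb1, which binds cAMP response elements, fell by 0.61 ± 0.15 in WT at 4 h (adjusted p = 0.0053) and by 0.47 ± 0.12 in CIS KO (adjusted p = 0.0067). Crem, a related factor, fell by 0.77 ± 0.14 in WT at 24 h (adjusted p = 7.4e-05), and Elk1, a partner of serum response factor, fell by 0.57 ± 0.14 in CIS KO at 4 h (adjusted p = 0.0077).

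Of 10 upstream kinases, all tested, 1 fell in WT at 4 h, where 11.9% of all genes were called. It was Mapk8, which encodes the JUN kinase JNK1 (-0.77 ± 0.26, adjusted p = 0.0496). The other 5 responses to TGFB1 had 0 calls by edgeR among the kinases, with 0.0195% to 24% of all genes called. Of 4 EGR relatives and co-repressors, 2 were tested, and 1 call was made in the responses to TGFB1. Nab1, a co-repressor of EGR proteins, rose by 0.41 ± 0.12 in TGFBRII KO at 4 h (adjusted p = 0.021), where 8.02% of all genes were called.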

How the data were processed

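The 31 libraries hold RNA of sorted mouse NK cells. The authors deposited raw counts per gene with Entrez identifiers. Per the submitters' processing notes, FastQC, Trimmomatic, Subread, featureCounts, Picard and SAMtools were used on mm10; versions, roles, strand setting and treatment of duplicate reads were not given in the sources used here. Per the labels' protocols, the library kit was directional. Symbols and coordinates came from RefSeq for 25275 identifiers. The genes and the companion lists were chosen with earlier results of these data known.

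The test was that of edgeR 4.0.16 (R 4.3.3): filterByExpr on 9 groups (10275 genes kept), TMM scaling, all 31 libraries in 1 fit, the quasi-likelihood F-test for 19 comparisons, and Benjamini-Hochberg adjustment with a threshold of 0.05. SE is the fold change over the square root of F. Log2 CPM used a prior count of 2. The script was tested on simulated data. Named genes were all 10 members, at most 4 of each companion list by smallest p over the 6 responses to TGFB1, and the 3 genes most correlated with each tested member of at least 10 CPM. Alternatives were RLE scaling, library size alone, no filter, depth as a covariate, a replicate block, DESeq2 1.42.0, a fit of only the groups compared, and leaving out each library.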

Additional observations from a re-analysis of the deposited data

Results flagged for a closer look

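Of 50 sets of values tested, each for 1 gene in a group of 4 libraries, 4 had a library far from the other 3 by Dixon's test at the 95% level. For continuous values chance gives this in about 1 of 20 sets. That rate does not hold for scarce genes, where 3 libraries at 0 flag any count in the remaining library. Junb was at 119 CPM in replicate 2 of CIS KO at 24 h, with the other 3 libraries at 239 to 252 CPM. That library is the deepest, at 1403005 counts, and Junb counts rose less than in proportion to depth; the part of depth in this value was not tested separately. Egr2 was at 55.7 CPM in replicate 2 of unstimulated CIS KO, against 44.2 to 45.2 CPM in the others. Fosb was at 2.55 CPM in replicate 1 of CIS KO at 4 h (2 counts) and Nr4a3 at 4.05 CPM in replicate 2 of CIS KO at 24 h (6 counts), with 0 counts in the other 3 libraries of each group.

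The response to TGFB1 differed between TGFBRII KO and WT, by a test of the difference itself, for Egr1 and Egr2. The log2 difference was -0.94 for Egr1 and -1.16 for Egr2 at 4 h, and -0.82 for Egr1 and -1.31 for Egr2 at 24 h.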

How the results depend on the processing

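Of the 29 calls of single genes over the 19 comparisons, 17 passed under every alternative run, and 0 changed sign under any. The total was 28 with RLE scaling and with DESeq2, 32 with library size alone, 34 with depth as a covariate, 34 with only the groups compared, and 47 without the low-count filter. Without that filter the count became 5 for WT at 4 h, 1 for WT 24 h against 4 h, 2, 1 and 2 for TGFBRII KO at 4 h, 24 h and 24 h against 4 h, 5 and 4 for CIS KO at 4 h and 24 h against 4 h, and 4 for the 24 h response difference between TGFBRII KO and WT; the cause was not tested. For unstimulated CIS KO against WT the count was 2 with library size alone, DESeq2 or only the groups compared, 3 without the filter, and 0 with depth or the replicate block. For TGFBRII KO it was 2 at 4 h with depth and 0 with DESeq2, and with only the groups compared 2 at 4 h, 1 at 24 h and 2 for 24 h against 4 h. The shares of all genes called under these alternatives are not given here, so the counts do not set these genes apart from others.

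Leaving out each library in turn gave 2 to 4 calls for WT at 4 h, 3 to 5 for WT at 24 h, 0 to 1 for TGFBRII KO at 4 h, 1 for 24 h against 4 h in that genotype, 2 to 3 for each CIS KO response, 1 to 3 and 3 to 5 for TGFBRII KO against WT at 4 h and 24 h, 0 to 2 for unstimulated CIS KO against WT, 1 to 2 and 2 to 3 for the response difference between TGFBRII KO and WT at 4 h and 24 h, and 0 for the rest.

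Libraries with the same replicate number did not deviate together: over 107 such pairs r ran from -0.388 to 0.395, with a median of 0.005, and 18 were over 0.1. The replicate block gave 27 calls in place of 29. It ended those of Egr2 in TGFBRII KO against WT at 4 h (-0.70, adjusted p = 0.069) and of Junb in unstimulated CIS KO against WT (0.63, adjusted p = 0.058).

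Depth limits Fos, Fosb, Nr4a3 and Nr4a1, and the 2 WT libraries at 4 h limit the comparisons that use them.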
